A study of Mus musculus with 4 samples.

Results

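Mitochondrial fatty acid oxidation was described here through 33 genes in mouse Leydig cells, the testis cells that make androgens, with and without C2orf74. The genes were taken by name and matched by symbol, and all 33 were found among the 27357 gene IDs of the deposited tables. They cover the carnitine shuttle (7 genes), the acyl-CoA dehydrogenases (8), the enzymes of hydration, hydroxyacyl oxidation and thiolysis (5), the auxiliary enzymes of unsaturated chains (3), the electron transfer flavoprotein and its oxidoreductase (3), genes of control and fuel choice (3), acyl-CoA thioesterases (3) and the ketone body thiolase Acat1.

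RNA-seq libraries were made from Leydig cells of C2orf74 KO males (2 libraries) and of WT males (2 libraries). Both genotypes were put on a high-fat diet at the age of 8 weeks and stayed on it for 12 weeks, so no library shows these genes on another diet. The labels do not say which part of C2orf74 was removed, in which cells, or whether the libraries of a genotype came from separate animals, so p-values rest on a spread among libraries that may be technical only.

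Fatty acids enter the mitochondrial matrix as carnitine esters, a step that the outer membrane acyltransferase CPT1 controls. Inside, each turn of the beta-oxidation spiral runs through a dehydrogenase, a hydratase, a second dehydrogenase and a thiolase, and releases acetyl-CoA. Electrons of the acyl-CoA dehydrogenases pass through the electron transfer flavoprotein to the respiratory chain. In Leydig cells the same mitochondria hold the side-chain cleavage enzyme that opens steroid synthesis from cholesterol.

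The libraries held 15694389 and 19764004 recovered reads in KO and 13847807 and 15817093 in WT. The mouse gene of C2orf74, annotated as 1700093K21Rik, was listed at 0 in both KO libraries, and at 0 and 0.126 RPKM in the WT libraries, so it could not serve to check the labels at this depth. The Leydig markers Star, Cyp11a1, Hsd3b1, Hsd3b6, Insl3 and Prlr stood between 70.3 and 820 RPKM in every library, while Cyp17a1 stood between 0.900 and 2.12 RPKM. The remaining Leydig markers Nr5a1, Lhcgr and Hsd17b3 stood between 4.83 and 36.0 RPKM. Markers of adipocytes (7 genes) and striated muscle (6 genes) summed to at most 1.34 RPKM and 0.604 RPKM in a library, and Adipoq and Mb were listed at 0 in both KO libraries. Of the markers tested, all 9 of macrophages, all 5 of endothelium, 5 of 6 of peritubular myoid and smooth muscle and 4 of 6 of fibroblasts had a lower mean in KO, while 7 of 10 of Leydig cells and all 3 of germ cells had a higher mean. Of the 7 Sertoli cell markers only Clu and Amhr2 were tested, and both had a lower mean in KO. The other Sertoli cell markers did not reach 1 RPKM in 2 libraries. The 7 markers summed to 800 and 670 RPKM in KO, against 703 and 854 RPKM in WT. The summed level of 10 macrophage markers was 720 and 1128 RPKM in KO, against 1370 and 1043 RPKM in WT. That of 9 endothelial markers was 21.6 and 18.0 RPKM in KO, against 31.4 and 35.7 RPKM in WT. Peritubular myoid and smooth muscle markers (8 genes) summed to 200 and 182 RPKM in KO, against 229 and 261 RPKM in WT, and fibroblast markers (8 genes) to 286 and 228 RPKM in KO, against 284 and 318 RPKM in WT. Germ cell markers (8 genes) summed to 15.1 and 12.4 RPKM in KO, against 9.96 and 10.2 RPKM in WT. The 10 Leydig markers summed to 1826 and 1938 RPKM in KO, against 1712 and 1520 RPKM in WT. The part of this shift in the results below was not tested, and in such bulk libraries fewer cells of a type and less RNA per cell cannot be told apart.

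Most genes of fatty acid oxidation lay slightly higher in KO, and none passed the test. Of the 33 genes, 29 reached 1 RPKM (reads scaled by exon length and library size) in at least 2 libraries and were tested. Of these 29, 26 were higher and 3 lower in KO, where 46.2% of all 12391 genes tested were higher and 53.8% lower. Their median log2 change, on the scale of log2(RPKM + 1), was 0.10, against -0.02 over all genes tested, and single genes ran from -0.09 for Acad11 to 0.43 for Acadsb. At a false discovery rate of 0.05 limma called 0 of the 29, as it called 0% of all genes tested. At an unadjusted p under 0.05 it gave 4 higher genes (Acadsb, Etfdh, Acadm and Echs1) and 0 lower ones, beside 4.33% and 7.42% of all genes. Voom on recovered reads also called 0 genes, with 4 of 26 at an unadjusted p under 0.05, beside 12.0% of all genes in that fit. Cpt1a, Acaa2 and Eci1 were left out of the voom fit. Their recovered reads were not whole numbers in every library at the exon lengths used here. For 11 of the 29 both KO libraries lay above both WT libraries, as for 19.7% of all genes, and for 1, Acad11, both lay below, as for 25.0% of all genes.

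The KO libraries differed in how far they stood from WT. Relative to the WT mean, the 29 genes had a median of 0.16 in KO replicate 1, where 24 lay above the WT mean. In KO replicate 2 that median was 0.06, with 20 genes above the WT mean (log2 scale). Over all 12391 genes tested, 5908 lay above the WT mean in KO replicate 1 and 5807 in KO replicate 2. The median absolute gap between the KO libraries was 0.15 for the 29 genes, and between the WT libraries 0.08. Over all genes tested the same gaps were 0.14 and 0.10. Without KO replicate 1 the median change was 0.06 with 20 of 29 genes higher, and without KO replicate 2 it was 0.16 with 24 of 29 higher. Without KO replicate 1 unadjusted p-values under 0.05 were found for 3 higher genes and 1 lower one, beside 19.3% of all genes in that fit. Without KO replicate 2 they were found for 9 of the 29, beside 16.3% of all genes. Leaving out WT replicate 1 gave 1 such gene, beside 4.82% of all genes, and leaving out WT replicate 2 gave 0, beside 5.89%.

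**Figure D1:**
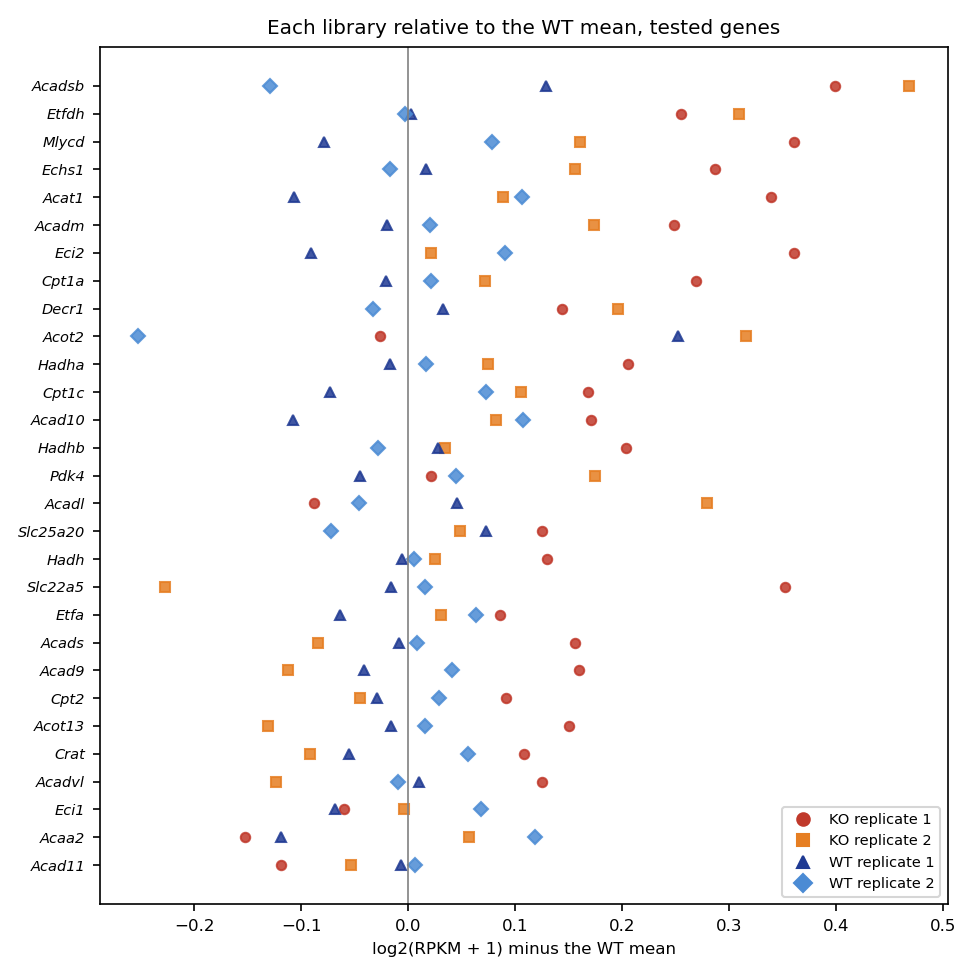
Each of the 29 tested genes in each library, as log2(RPKM + 1) minus the mean of the WT libraries, ordered by the change in KO over WT. Circles and squares are KO replicates 1 and 2, triangles and diamonds are WT replicates 1 and 2. Both KO libraries lie right of both WT libraries for 11 genes, among them Acadsb and Etfdh at the top, and KO replicate 1 lies right of KO replicate 2 for 20 genes. Of all 12391 genes tested, 6324 were higher in KO replicate 1 than in KO replicate 2.

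Among the genes of the carnitine shuttle, Cpt1a was by far the main CPT1 isoform in these cells. Cpt1a, the liver-type isoform, stood at 96.7 and 84.2 RPKM in KO libraries, against 78.9 and 81.3 RPKM in WT libraries. The groups did not overlap, but KO replicate 2 exceeded WT replicate 2 by little, and the log2 change was 0.17 ± 0.10 (SE, limma adjusted p = 0.572). Cpt1c, the brain-type isoform, which resides in the endoplasmic reticulum, stood at 3.68 and 3.48 RPKM in KO and at 2.96 and 3.38 RPKM in WT. Cpt1b, the muscle-type isoform, was close to the limit of detection at 0.0756 and 0.0300 RPKM in KO (4 and 2 reads) and 0.107 and 0.0750 RPKM in WT (5 and 4 reads). In GENCODE M21 81.4% of its exonic bases also belong to Gm44502 on the same strand, and what this does to its value was not tested. Of the summed RPKM of the 3 isoforms Cpt1a held 96.3% and 96.0% in KO, and 96.3% and 95.9% in WT. The mean share of Cpt1a differed between the genotypes by less than between libraries of a genotype.

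The other genes of the shuttle overlapped between the groups. Cpt2, the inner membrane acyltransferase that returns the acyl group to coenzyme A, averaged 25.1 ± 1.73 RPKM in KO and 24.6 ± 0.720 RPKM in WT (SD, n = 2 each), with a 95% interval of the log2 change from -0.20 to 0.25. The carnitine-acylcarnitine translocase Slc25a20 averaged 13.3 ± 0.539 RPKM in KO and 12.5 ± 0.956 RPKM in WT. Slc22a5, the plasma membrane carnitine transporter, stood at 41.1 and 27.2 RPKM in KO, against 31.6 and 32.3 RPKM in WT. Its KO libraries thus lay on either side of WT, and the log2 change of 0.06 ± 0.20 turned to -0.23 without KO replicate 1. Of the 50-base stretches of its transcripts 26.1% also occur in those of the neighbouring paralog Slc22a21, which stood between 1.53 and 2.08 RPKM. Crat, which transfers short acyl groups to carnitine, averaged 7.27 ± 0.810 RPKM in KO and 7.21 ± 0.447 RPKM in WT.

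**Figure D2:**
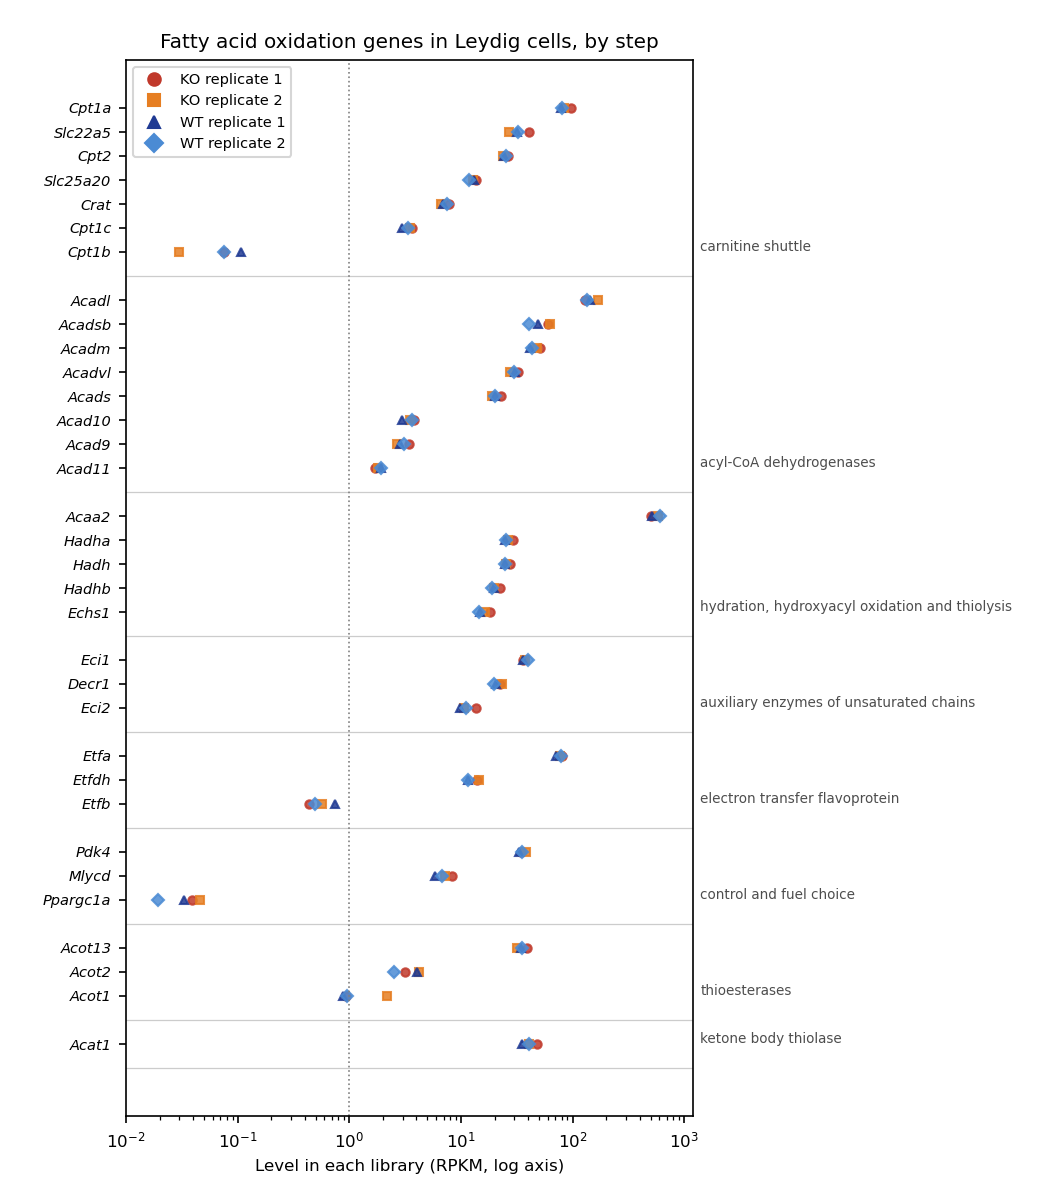
Level of the 33 genes in each library, in RPKM on a log axis, grouped by step and ordered by mean within a step. Circles and squares are KO replicates 1 and 2, triangles and diamonds are WT replicates 1 and 2, and the dotted line marks 1 RPKM. Acaa2 lies highest, near 548 RPKM on average, while Cpt1b, Etfb and Ppargc1a stay below 1 RPKM in all 4 libraries.

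The acyl-CoA dehydrogenases, each with its own range of chain length, held the gene with the largest log2 change of the 29 tested. Acadsb, which acts on short branched chains and takes part in isoleucine breakdown, stood at 59.7 and 62.7 RPKM in KO libraries, against 49.3 and 41.1 RPKM in WT libraries. Both KO libraries were above both WT libraries, by 1.35-fold on average. The log2 change was 0.43 ± 0.11 (SE), with an unadjusted p of 0.0118 and a limma adjusted p of 0.300. Acadm, the medium-chain dehydrogenase, stood at 50.8 and 48.2 RPKM in KO and at 42.0 and 43.2 RPKM in WT. Its groups were apart as well, with a log2 change of 0.21 ± 0.08 (limma adjusted p = 0.415).

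Acadl, the long-chain dehydrogenase, was the most abundant of the 8 in every library. It stood at 131 and 169 RPKM in KO, against 143 and 134 RPKM in WT, so that the KO libraries enclosed the WT libraries and the log2 change (0.10 ± 0.15) turned to -0.09 without KO replicate 2. Acadvl, which takes very long chains at the inner membrane, averaged 30.1 ± 3.78 RPKM in KO and 30.0 ± 0.297 RPKM in WT, with a 95% interval of the log2 change from -0.27 to 0.28. Of its exonic bases 42.9% overlap Dvl2 on the opposite strand, which stood between 5.18 and 6.30 RPKM, and whether strand was used in counting is not given in the sources used here. Acads, for short chains, averaged 20.9 ± 2.56 RPKM in KO and 20.2 ± 0.180 RPKM in WT.

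The remaining dehydrogenases were low. Acad9, known also as an assembly factor of respiratory complex I, stood between 2.66 and 3.42 RPKM, and Acad10 between 2.98 and 3.82 RPKM. Acad10 shares 16.8% of its 50-base stretches with Acad12, so some reads may be exchanged between them. Acad11 stood at 1.70 and 1.82 RPKM in KO, against 1.92 and 1.94 RPKM in WT, and was the one gene of the 29 with both KO libraries below both WT libraries (log2 change -0.09 ± 0.12). As a share of the summed RPKM of the 8 dehydrogenases, Acadsb held 19.5% and 18.8% in KO, against 16.9% and 14.8% in WT. The share of Acadl was 42.7% and 50.5% in KO, against 48.9% and 48.4% in WT, and it varied more between the KO libraries than between the genotypes.

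**Figure D3:**
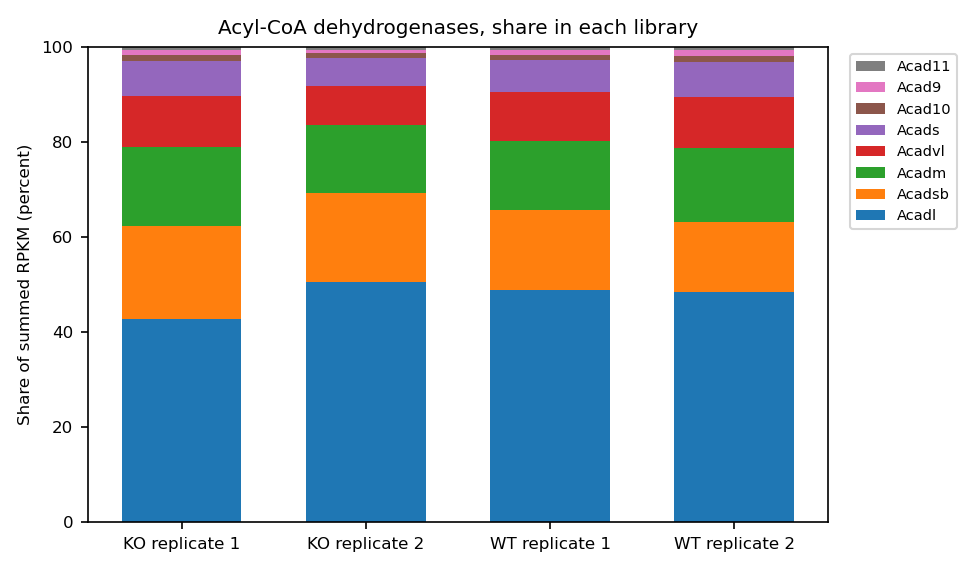
Share of each acyl-CoA dehydrogenase in the summed RPKM of the 8 genes, in percent, 1 stacked bar per library with KO libraries left of WT libraries. Acadl holds 42.7% to 50.5% of the sum, and the Acadsb layer is thicker in both KO bars (19.5% and 18.8%) than in the WT bars (16.9% and 14.8%).

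Genes of the inner steps of the spiral lay apart between the genotypes by small amounts, except for the thiolase Acaa2. Both KO libraries lay above both WT libraries for 4 of the 5, beside 19.7% of all genes tested. Echs1, the short-chain enoyl-CoA hydratase, stood at 18.1 and 16.5 RPKM in KO libraries, against 14.9 and 14.5 RPKM in WT libraries. All KO values were above the WT values, with a log2 change of 0.22 ± 0.09 (SE, unadjusted p = 0.0477, limma adjusted p = 0.419). Hadh, the short-chain hydroxyacyl-CoA dehydrogenase, stood at 27.3 and 25.3 RPKM in KO and at 24.8 and 25.0 RPKM in WT, where the lower KO library exceeded the higher WT library by less than 1 RPKM. Its log2 change was 0.08 ± 0.08 (limma adjusted p = 0.755). Hadha and Hadhb encode the subunits of the mitochondrial trifunctional protein, which handles long chains. Hadha stood at 29.2 and 26.5 RPKM in KO and at 24.8 and 25.5 RPKM in WT. Hadhb stood at 22.6 and 20.0 RPKM in KO and at 19.9 and 19.1 RPKM in WT, so its lower KO library barely exceeded its higher WT library. Log2 changes of Hadha and Hadhb were 0.14 ± 0.09 and 0.12 ± 0.09 (limma adjusted p = 0.581 and 0.665). The ratio of Hadha to Hadhb was 1.29 and 1.33 in KO, against 1.25 and 1.34 in WT. Of the 50-base stretches of Hadhb 18.1% also occur in Gm13910, listed between 26.5 and 28.8 RPKM in the 4 libraries, so the level of Hadhb is uncertain.

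Hadha and Hadhb lie head to head on chromosome 5 with 85 bases between their annotated starts in GENCODE M21 (GRCm38). This stretch is shown because both genes start from it. It is given on the strand of Hadhb, from RefSeq on GRCm38.p6 at chr5:30155163-30155247, with GC boxes (GGGCGG on either strand) in capitals.
Hadha-Hadhb gap: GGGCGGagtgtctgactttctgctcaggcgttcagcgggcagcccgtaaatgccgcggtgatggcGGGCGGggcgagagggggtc

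Acaa2, the mitochondrial 3-ketoacyl-CoA thiolase, was the most abundant of the 33 genes, and 99.6% of all genes tested had a lower mean level. It stood at 500 and 578 RPKM in KO libraries, against 512 and 603 RPKM in WT libraries. The libraries of a genotype differed by more than the genotypes did, and the log2 change of -0.05 ± 0.15 was 0.06 without KO replicate 1 and 0.07 without WT replicate 2. Per length Acaa2 stood 22.2 and 29.0 times as high as Hadhb in KO, and 25.8 and 31.6 times in WT. Acaa2 was the largest single part of the sum over the 33 genes, which was 1393 and 1447 RPKM in KO, against 1311 and 1409 RPKM in WT. With Acaa2 the sums overlapped between the groups. Leaving Acaa2 out, the sum was 893 and 869 RPKM in KO, against 799 and 806 RPKM in WT, and the groups did not overlap. This second sum was not planned, and it drops 1 of the 3 tested genes with a lower mean in KO.

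Of the enzymes for unsaturated chains, Decr1, the 2,4-dienoyl-CoA reductase, stood at 22.5 and 23.4 RPKM in KO, against 20.8 and 19.8 RPKM in WT. The groups were apart, with a log2 change of 0.17 ± 0.08 (SE, limma adjusted p = 0.482). Eci1 and Eci2, which shift double bonds, overlapped between the groups. Eci1 stood at 36.1 and 37.6 RPKM in KO, against 35.9 and 39.5 RPKM in WT, and its log2 change of -0.03 ± 0.09 was 0.04 without WT replicate 2. Eci2 stood at 13.7 and 10.6 RPKM in KO, against 9.74 and 11.2 RPKM in WT, where KO replicate 2 lay within the WT range.

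Etfdh, the oxidoreductase that passes electrons from the flavoprotein to ubiquinone, had the second largest log2 change of the 29 tested genes. It stood at 14.1 and 14.7 RPKM in KO libraries, against 11.7 and 11.6 RPKM in WT libraries. The libraries of each genotype lay close together and the genotypes apart, by 1.23-fold on average, with a log2 change of 0.28 ± 0.08 (SE, unadjusted p = 0.0137, limma adjusted p = 0.316). Etfa, a subunit of the flavoprotein, stood at 79.8 and 76.7 RPKM in KO and at 71.8 and 78.5 RPKM in WT. The ratio of Etfa to Etfdh was 5.67 and 5.24 in KO, against 6.16 and 6.76 in WT. Etfb encodes the partner subunit of Etfa in the same dimer, but was listed at only 0.438 and 0.565 RPKM in KO (8 and 13 reads), against 0.744 and 0.489 RPKM in WT (12 and 9 reads). In GENCODE M21 53.0% of its exonic bases also belong to Gm45233 on the same strand, and what this does to its value was not tested.

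Among genes of control and fuel choice, Mlycd, the malonyl-CoA decarboxylase that removes the inhibitor of CPT1, stood at 8.37 and 7.16 RPKM in KO libraries, against 5.91 and 6.71 RPKM in WT libraries. Both KO libraries were above both WT libraries, with a log2 change of 0.26 ± 0.11 (SE, limma adjusted p = 0.454). Pdk4, the kinase that closes pyruvate dehydrogenase when fat is burned, stood at 34.7 and 38.7 RPKM in KO and at 33.1 and 35.3 RPKM in WT, so the groups overlapped. Ppargc1a, a coactivator of mitochondrial genes, was close to the limit of detection at 4 and 6 reads in KO and 3 and 2 reads in WT, or 0.0387 and 0.0461 RPKM against 0.0329 and 0.0192 RPKM. The ketone body thiolase Acat1 stood at 48.3 and 40.4 RPKM in KO and at 35.2 and 41.0 RPKM in WT, where KO replicate 2 lay within the WT range.

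The thioesterases, which release free fatty acids from coenzyme A, held the gene with the widest gap between KO libraries on the log2(RPKM + 1) scale. Acot1, the cytosolic member, stood at 0.927 and 2.16 RPKM in KO (57 and 167 reads), against 0.884 and 0.952 RPKM in WT (48 and 59 reads). Only KO replicate 2 stood above the others, and Acot1 was not tested because a single library reached 1 RPKM. Its mitochondrial paralog Acot2 stood at 3.13 and 4.24 RPKM in KO and at 4.01 and 2.53 RPKM in WT, with overlapping groups. Both lie on chromosome 12 with 15616 bases between them, and 24.5% of the 50-base stretches of Acot2 also occur in Acot1, so reads may be split between them. Acot13 averaged 35.3 ± 4.98 RPKM in KO and 34.9 ± 0.572 RPKM in WT.

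**Figure D4:**
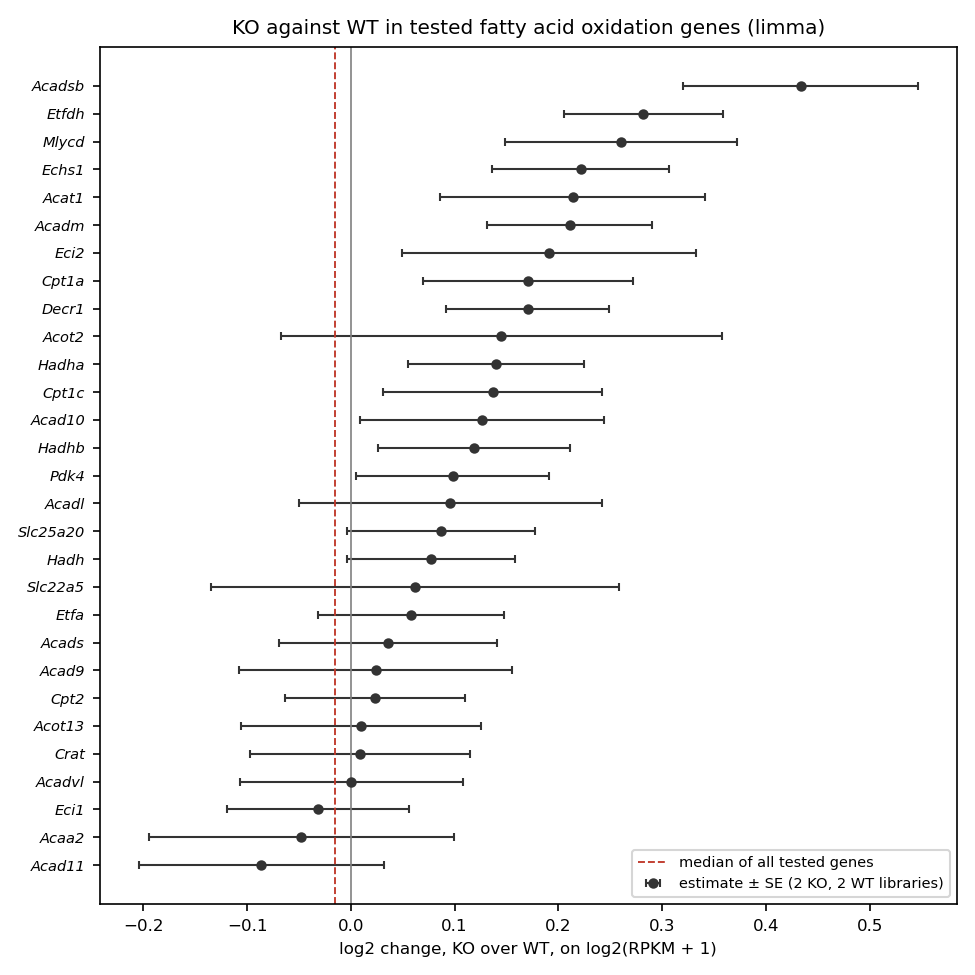
Change in KO over WT of the 29 tested genes on the log2(RPKM + 1) scale, as estimate ± SE from limma with 2 KO and 2 WT libraries, ordered by size. The dashed line is the median of all genes tested (-0.02). Acadsb lies highest at 0.43 ± 0.11, and 3 genes, Acad11, Acaa2 and Eci1, lie below 0.

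The genes were spread over 16 chromosomes, with at most 5 on one. RefSeq promoters on GRCm38.p6 were at hand for 26 of the 33 genes, and the 250 bases before the start had a median GC content of 58.8%, against 60.0% for genes tested. PPAR and oestrogen-related receptors, known regulators of these genes, bind repeats or extensions of the half-site AGGTCA. The half-site was found on either strand in 5 of the 26 (19.2%) and in 14.0% of all 32851 promoters or 11.0% of those of genes tested. A direct repeat of AGGTCA with 1 base between the copies and the extended form TCAAGGTCA, which both contain the half-site, were found in 0 of the 26, and in 0.0335% and 0.387% of all promoters or 0.0176% and 0.290% of those of genes tested. Only exact matches in these 250 bases were sought. Forms so rare would seldom turn up among 26 promoters, so their absence here decides nothing about binding. GC boxes were found in 61.5% of the 26, and in 32.7% of all promoters or 58.4% of those of genes tested. The 5 genes with the half-site were Cpt1a, Cpt1c, Acadm, Acadvl and Echs1, with log2 changes from 0.0006 for Acadvl to 0.22 for Echs1. Whether the half-site goes with the change in KO was not tested. Among the 4 genes with an unadjusted p under 0.05, Acadm and Echs1 held the half-site. Their exon-free sequence upstream is shown for that reason, on the strand of each gene, with the half-site in capitals (TGACCT is its other strand), at chr3:153944644-153944893 on the minus strand for Acadm and chr7:140116477-140116671 on the minus strand for Echs1.
Acadm promoter: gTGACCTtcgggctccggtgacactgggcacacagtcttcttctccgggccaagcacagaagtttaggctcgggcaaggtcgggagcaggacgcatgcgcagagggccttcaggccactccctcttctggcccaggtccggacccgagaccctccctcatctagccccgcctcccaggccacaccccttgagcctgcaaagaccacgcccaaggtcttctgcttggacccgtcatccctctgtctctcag
Echs1 promoter: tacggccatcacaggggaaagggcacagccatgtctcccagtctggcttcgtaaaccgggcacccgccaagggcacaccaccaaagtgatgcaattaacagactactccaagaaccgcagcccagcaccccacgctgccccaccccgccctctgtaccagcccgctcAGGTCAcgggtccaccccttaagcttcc

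Genes next to this pathway were described by further lists, none of whose members passed a false discovery rate of 0.05 in limma. Their counts stand beside 46.2% of all genes tested with a higher mean in KO, and 4.33% higher and 7.42% lower at an unadjusted p under 0.05. Among other mitochondrial acyl-CoA enzymes, mostly of amino acid breakdown, 21 of 25 tested genes were higher in KO (median log2 change 0.11), and 4 were higher and 1 lower at an unadjusted p under 0.05. Aldh6a1, of valine breakdown, stood at 30.0 and 29.3 RPKM in KO, against 25.0 and 24.7 RPKM in WT. Pccb, a subunit of propionyl-CoA carboxylase, stood at 26.2 and 25.8 RPKM in KO and at 22.6 and 21.2 RPKM in WT. Acot7, a thioesterase, lay the other way at 12.6 and 11.8 RPKM in KO, against 16.5 and 17.0 RPKM in WT. For all 3 genes the groups did not overlap. Of the 25 tested, 13 had both KO libraries above both WT libraries and 3 had both below, beside 19.7% and 25.0% of all genes.

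Genes that activate fatty acids to coenzyme A esters had 7 of 9 tested genes higher (median 0.17). Relative to the WT mean, the 9 genes had a median of 0.22 in KO replicate 1, with 7 above the WT mean. In KO replicate 2 that median was -0.0068, with 4 above the WT mean. Acsl3 stood at 9.53 and 11.0 RPKM in KO and at 7.56 and 7.55 RPKM in WT, and Acsl4 at 37.6 and 42.2 RPKM in KO and at 34.6 and 30.6 RPKM in WT. The ketone body list had 5 of 6 higher (median 0.08). Aacs, which activates acetoacetate in the cytosol, stood at 34.6 and 33.1 RPKM in KO, against 23.9 and 29.0 RPKM in WT, with groups that did not overlap. In carnitine synthesis and other carnitine acyltransfer 4 of 7 were higher (median 0.05). Relative to the WT mean, the 7 genes had a median of 0.19 in KO replicate 1 and -0.09 in KO replicate 2. Among the higher genes was the peroxisomal acyltransferase Crot, at 15.9 and 14.7 RPKM in KO and at 12.8 and 12.5 RPKM in WT.

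Among regulators 15 of 21 were higher (median 0.12), with 3 higher and 1 lower at an unadjusted p under 0.05, where all genes gave 4.33% and 7.42%. Ppara, the fatty acid receptor that drives these genes in liver, stood at 4.82 and 4.62 RPKM in KO libraries, against 2.92 and 3.16 RPKM in WT libraries (log2 change 0.50 ± 0.10 SE, limma adjusted p = 0.206). The corepressor Nrip1 stood at 7.41 and 8.29 RPKM in KO and at 5.53 and 6.02 RPKM in WT. The oestrogen-related receptor Esrra lay lower, at 10.2 and 9.11 RPKM in KO, against 10.8 and 12.0 RPKM in WT, and so did the coactivator Pprc1, at 7.11 and 6.32 RPKM in KO, against 8.27 and 8.16 RPKM in WT. Groups did not overlap for any of these 4. Esrra had an unadjusted limma p of 0.0697. Esrrg, another oestrogen-related receptor, lay the other way, at 1.68 and 1.41 RPKM in KO, against 0.989 and 1.29 RPKM in WT. Lpin1, with an unadjusted limma p of 0.0151, stood at 3.59 and 3.62 RPKM in KO, against 2.27 and 2.71 RPKM in WT. Of the 21 regulators tested, 10 had both KO libraries above both WT libraries and 3 had both below. Over all genes tested the shares were 19.7% and 25.0%. Known PPAR targets outside the 33 genes lay on both sides, with 6 of 13 higher (median -0.06). The mitochondrial carrier Slc25a34 stood at 15.1 and 9.02 RPKM in KO and at 6.73 and 7.20 RPKM in WT, and the lipid droplet gene Hilpda at 4.10 and 4.17 RPKM in KO and at 6.48 and 5.90 RPKM in WT. Cyp4a10, Cyp4a14, Fgf21 and Fabp1 were each listed at 0 in at least 3 of the 4 libraries.

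Genes of other mitochondrial functions are given beside these. Of 18 tested genes of the TCA cycle 10 were higher in KO and 8 lower (median log2 change 0.01). Citrate synthase Cs stood at 43.9 and 40.0 RPKM in KO, against 47.3 and 45.0 RPKM in WT. Of 18 genes of mitochondrial import and outer membrane 3 were higher and 15 lower, with a median of -0.10, and for 12 both KO libraries lay below both WT libraries, as for 25.0% of all genes. The matrix chaperone Hspd1 stood at 128 and 117 RPKM in KO, against 147 and 143 RPKM in WT, and the porin Vdac2 at 45.3 and 46.7 RPKM in KO, against 54.0 and 53.5 RPKM in WT. The difference between these lists and the genes of fatty acid oxidation was not tested.

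**Figure D5:**
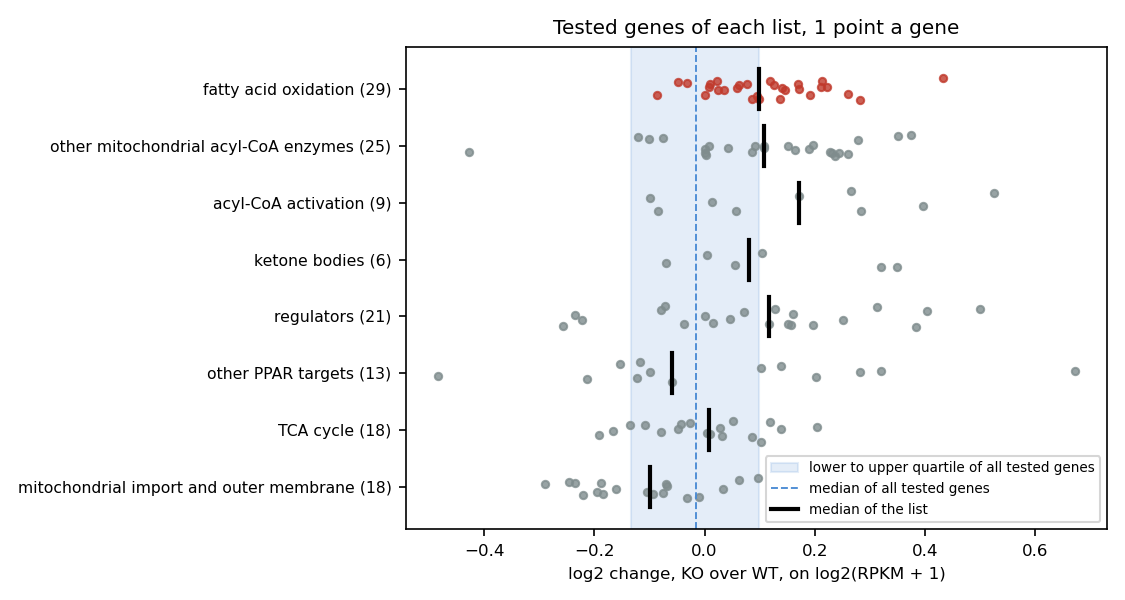
Change in KO over WT of the tested genes of the lists named on the left, on the log2(RPKM + 1) scale, 1 point a gene with a bar at the median of the list and the number of genes in brackets. The shaded band runs from the lower to the upper quartile of all genes tested. Fatty acid oxidation has 26 of 29 points above 0 and import and outer membrane genes 3 of 18.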

How the data were processed

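Leydig cell RNA of 2 KO and 2 WT mouse samples was extracted with Trizol and made into Illumina libraries, per the labels' protocols. Per the submitters' processing notes the build was mm9. No aligner, counter or annotation is named in the sources used here. The deposited tables give 1 value for each of 27357 gene IDs, with no unit named. They were taken to be RPKM made by the authors, since each value times exon length in GENCODE M21 (GRCm38) is a whole multiple of 1 step per library, within 0.01 reads, for 90.4% to 90.7% of values above 0. These steps gave the read totals. Symbols and lengths matched 27306 IDs.

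Genes at 1 RPKM or more in 2 libraries (12391) were compared on log2(RPKM + 1), which understates changes of low genes, with limma 3.58.1 in R 4.3.3 (genotype alone, trend, 2-sided, Benjamini-Hochberg). Residual and prior degrees of freedom were 2 and 3.08. The fit was tested on simulated data with changes larger than any of the pathway, which says nothing on changes this small. Members and lists were chosen with earlier results of these data known. Values in every library are given for the 10 members with the smallest p, the 8 with the highest level, entry control genes and paralogs, and untested members, while other members are given by step. Of other lists, genes named are among the 4 with the smallest p, or regulators. Cyp4a10, Cyp4a14, Fgf21 and Fabp1 were chosen after their values were seen. Alternatives were 2 normalizations, 2 filters, a smaller pseudocount (0.1), no trend, leaving out each library in turn, a replicate block and voom on recovered reads. Replicate numbers follow deposition order and pair nothing. Tables and plots used Python 3.11.15, pandas 2.3.3, NumPy 2.4.6 and Matplotlib 3.10.9. Sequences are from RefSeq on GRCm38.p6.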

Additional observations from a re-analysis of the deposited data

How the results depend on the processing

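None of the 29 tested genes passed a false discovery rate of 0.05 under any of the 12 alternatives, and 17 of them kept their direction in all that gave a value. When 1 library was left out at a time, calls over all genes ran from 0 to 306 (306 without KO replicate 1, and 139 when KO replicate 2 was dropped instead, with the lone KO library assumed to vary like the WT pair). Genes of the pathway higher in KO then ran from 20 to 26, those at an unadjusted p under 0.05 from 0 to 9 (beside 4.82% to 19.3% of all genes), and their median log2 change from 0.057 to 0.156. At an unadjusted p under 0.05 there were 2 genes without trend (beside 11.4% of all genes), and 2 (beside 8.82%) with a replicate block by the suffix that 1 title of each genotype carries. Deviations of libraries with the same suffix correlated at -0.0959, so the suffix is not shown to pair them. Quantile normalization gave 51.7% of all genes higher in KO, with 26 of 29 genes of the pathway higher. Without the filter all 33 genes were fitted, with 28 higher and 5 lower.

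Of 340 values of single genes 21 turned. With 1 library left out at a time, the log2 change ran from -0.0445 to 0.0912 for Cpt2, -0.228 to 0.352 for Slc22a5, -0.0914 to 0.109 for Crat, -0.0879 to 0.279 for Acadl, -0.0837 to 0.156 for Acads, -0.123 to 0.125 for Acadvl, -0.112 to 0.160 for Acad9, -0.166 to 0.0709 for Acaa2, -0.0995 to 0.0366 for Eci1, -0.00521 to 0.122 for Etfa, -0.107 to 0.397 for Acot2 and -0.130 to 0.150 for Acot13. With voom it was -0.0018 for Acadvl and -0.0013 for Acot13. The cause was not tested. At 2 to 13 reads a library, changes of Cpt1b, Etfb and Ppargc1a could not be assessed. The part of depth in these low counts was not tested, nor, for Cpt1b and Etfb, that of the overlap with genes on the same strand.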
